A study of Mus musculus with 18 samples.

Results

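The regions described here were the accessible chromatin regions at the start sites of noncoding RNA genes in mouse lung endothelial cells. Peaks of all 18 deposited lists on chromosomes 1 to 19, X and Y were merged wherever they overlapped by at least 1 bp, and a merged region was kept when at least 2 lists had a peak in it. A region was a noncoding RNA promoter region when its midpoint lay within 1 kb of the start of a RefSeq NR transcript of a long noncoding RNA (lncRNA) or microRNA gene and over 2 kb from every protein-coding (NM) start. This gave 522 of 47338 regions, 465 at lncRNA starts and 57 at microRNA starts, belonging to 481 genes. A further 795 regions lay within 1 kb of a noncoding start but 2 kb or less from a coding start, and were left out. The member farthest from its start was 992 bp away and the nearest region left out by that limit was 1005 bp away, and the member nearest to a coding start was 2025 bp from it.

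The samples were CD31+ lung cells from FVB mice carrying a Col1a1-GFP reporter, sorted as CD45-, EpCAM- and GFP-, with 1 mouse per list. Mice of 2 months (Young) or 18 months (Aged) received intratracheal bleomycin at 1 U/kg (Bleo) or PBS (Sham), and cells were collected on day 30. Mice numbered 5 for Young Sham, 4 each for Young Bleo and Aged Sham, and 5 for Aged Bleo, and chromatin was profiled by Omni-ATAC, in which a transposase inserts adapters into open DNA. The design asked how age and injury change endothelial chromatin, by setting Aged Sham, Young Bleo and Aged Bleo each against Young Sham. These 3 comparisons share the Young Sham mice and are given side by side. Age (9 against 9 samples) and bleomycin (9 against 9) were also compared over all samples.

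A long noncoding RNA is transcribed and usually spliced like a messenger RNA but is not translated, and its promoter is an open, transposase-accessible site when it is in use. Some lncRNAs act in the nucleus as scaffolds or in gene silencing, others mainly carry microRNAs or small nucleolar RNAs in their introns and exons. A microRNA is cut from a hairpin within a longer primary transcript and represses messenger RNAs that pair with its seed. The RefSeq start of a microRNA gene is the 5′ end of the hairpin and not the start of the primary transcript, so a region at a microRNA start need not be its promoter.

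For 5 genes whose regions are turned to often in the results, the 200 bp window around the highest summit is shown from the mm10 genome (RefSeq assembly GRCm38.p6), 5′ to 3′ on the strand of the transcript. Capitals mark matches, on either strand, to 5 short motifs that were searched as exact letters: CAGGAAG (an ETS motif), TGACTCA (AP-1, TGAGTCA on the other strand), CCGCCC (SP/KLF), CCGGAAG (ETS at promoters) and ATTGG (NF-Y). The Mir99ahg window at chr16:77329325-77329524 (plus strand) and the Trp53cor1 window at chr17:29078968-29079167 (minus strand) held none of them. The LOC105245613 window at chr13:101540512-101540711 (minus strand) matched the SP/KLF, AP-1 and first ETS motif. The C430049B03Rik window at chrX:53057152-53057351 (minus strand) held CCGCCC, and the A330023F24Rik window at chr1:195018209-195018408 (plus strand) held ATTGG 4 times.
Mir99ahg: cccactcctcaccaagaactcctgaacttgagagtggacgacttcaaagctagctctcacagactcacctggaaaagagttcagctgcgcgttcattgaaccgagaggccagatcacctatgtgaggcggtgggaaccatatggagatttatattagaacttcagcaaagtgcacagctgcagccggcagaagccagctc
Trp53cor1: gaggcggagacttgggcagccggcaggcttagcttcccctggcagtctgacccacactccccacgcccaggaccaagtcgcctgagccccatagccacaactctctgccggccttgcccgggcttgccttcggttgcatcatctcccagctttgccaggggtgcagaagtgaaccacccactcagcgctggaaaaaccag
LOC105245613: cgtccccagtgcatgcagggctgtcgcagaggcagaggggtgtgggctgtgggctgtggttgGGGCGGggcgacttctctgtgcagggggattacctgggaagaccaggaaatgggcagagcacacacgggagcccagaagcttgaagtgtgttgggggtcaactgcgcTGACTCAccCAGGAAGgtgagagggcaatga
C430049B03Rik: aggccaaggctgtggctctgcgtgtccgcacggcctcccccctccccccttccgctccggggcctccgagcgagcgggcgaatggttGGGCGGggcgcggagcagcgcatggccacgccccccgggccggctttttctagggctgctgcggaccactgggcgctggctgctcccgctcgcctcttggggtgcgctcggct
A330023F24Rik: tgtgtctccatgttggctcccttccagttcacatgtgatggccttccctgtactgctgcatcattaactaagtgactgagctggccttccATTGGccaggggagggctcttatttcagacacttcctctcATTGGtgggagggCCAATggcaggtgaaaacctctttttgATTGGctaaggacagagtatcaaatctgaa

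Of the hairpins that a member region starts or that lie inside a member transcript, 76 in all, 70 had a mature sequence in the RefSeq table, which gave 115 mature microRNAs with 110 seeds. Only 4 seeds were shared between hairpins of different member genes or of 1 host. The sequences below are those hosted by lncRNAs whose regions changed in height, or sharing a seed with them, together with miR-210, with the seed (bases 2 to 8) in capitals. The seed AGCACCA is carried by both microRNAs of A330023F24Rik, and AGCAGCA by miR-322-5p of C430049B03Rik and by miR-15a-5p and miR-16-5p of Dleu2. The seed CCCUGAG is carried by miR-351-5p of C430049B03Rik and by miR-125b-5p, whose copy Mir125b-1 lies in Mir100hg.
miR-29b-3p: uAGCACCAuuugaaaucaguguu
miR-29c-3p: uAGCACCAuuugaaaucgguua
miR-322-5p: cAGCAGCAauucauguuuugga
miR-15a-5p: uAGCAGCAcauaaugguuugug
miR-16-5p: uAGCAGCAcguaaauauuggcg
miR-503-5p: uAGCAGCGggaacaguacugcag
miR-351-5p: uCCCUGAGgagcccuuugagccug
miR-125b-5p: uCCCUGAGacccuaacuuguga
miR-22-3p: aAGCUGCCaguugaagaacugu
miR-210-3p: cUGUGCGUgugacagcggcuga

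The lncRNA regions sat on the annotated start, with a median midpoint 14 bp upstream (-14, quartiles -138 and 167 bp) and 62.8% within 250 bp. The microRNA regions were spread more widely around the hairpin start, with a median of 23 bp, quartiles of -363 and 525 bp, and 29.8% within 250 bp. By the midpoint, 193 lncRNA regions were intergenic, 129 lay in an exon and 89 in an intron of a noncoding transcript, 46 in an intron of a coding gene, 5 in a coding exon and 3 in an untranslated region. Of the microRNA regions, 25 were intergenic, 18 lay in an intron and 8 in an exon of a coding gene, 4 in a noncoding exon and 2 in an untranslated region. Their base composition lay between that of all regions and that of protein-coding promoter regions. The median GC content of the 200 bp around the summit was 55.5% in the noncoding promoter regions, 53.0% in all 47338 regions and 66.5% in the 12408 protein-coding promoter regions. The median ratio of observed to expected CpG was 0.484, 0.328 and 0.834 in the same order.

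The motif shares followed those of all regions except for the GC-rich CCGCCC. On both strands, CCGCCC was found in 32.2% of the noncoding promoter windows, in 25.2% of all windows and in 64.4% of coding promoter windows. CAGGAAG was found in 18.2% against 19.9% of all windows, TGACTCA in 6.51% against 6.6%, CCGGAAG in 7.66% against 6.45%, and ATTGG in 25.5% against 24.6%. The number of samples with a peak went with composition, as the plot of CpG ratio and GC content by number of samples shows: the median CpG ratio was 0.332 in the 140 noncoding promoter regions called in 2 to 9 samples, 0.382 in the 116 called in 10 to 17 and 0.662 in the 266 called in all 18. These shares and medians are descriptions with no test.

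**Figure D1:**
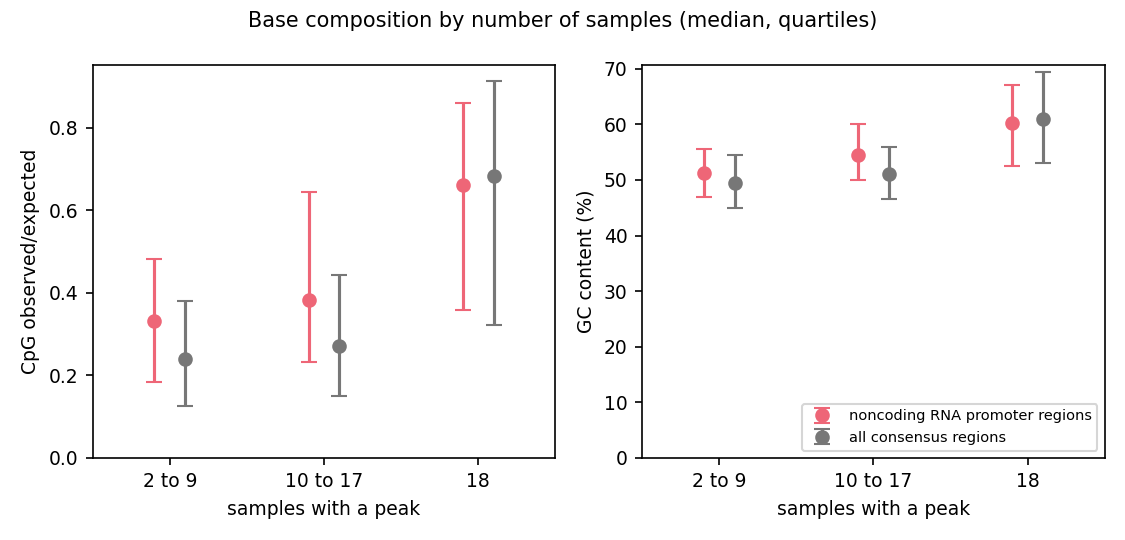
Median and quartiles (bars) of the CpG observed to expected ratio (left axis) and of GC content in percent (right panel) in the 200 bp around the summit of regions, by the number of samples with a peak. The noncoding RNA promoter regions rise from a median CpG ratio of 0.332 to 0.662, and all consensus regions from 0.24 to 0.684.

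Before the comparisons, the libraries are described. The lists held 21050 to 40883 peaks, and the list with the fewest, Aged Bleo 4, had a peak in 43.0% of all regions. Markers of the sorted cells were open: 10 of 11 endothelial genes (among them Cdh5, Kdr, Erg and Cldn5) had a promoter peak in 15 to 18 samples, and Emcn in 7. All 6 leukocyte promoters were without a peak in every sample, as were 4 of 6 epithelial and 5 of 7 fibroblast and mural promoters, while Epcam had a peak in 9 samples and Foxj1, Pdgfra and Myh11 in all 18. Every list held 37 to 69 peaks on chromosome Y and none had a peak at the Xist start. The paper used female and male mice, and the labels used here do not give the sex of each sample. The part of sex in the values of the 21 members on chromosome X was not tested. The names of the deposited lists carry a code that reads as a sequencing lane. By that code, lane 8 took every Young Sham sample plus Young Bleo 4. The remaining Young Bleo samples (1 to 3) ran in lane 7 beside Aged Sham 1 to 3, and Aged Sham 4 ran in lane 6 beside the Aged Bleo samples. Neither Aged Sham nor Aged Bleo shares a lane with Young Sham, so in those comparisons lane and group cannot be told apart except through Young Bleo 4 and Aged Sham 4.

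Noncoding promoter regions were open in more samples than most regions, but in fewer than coding promoters. They were called in all 18 samples in 266 of 522 cases (51.0%), against 36.8% of all regions, 78.4% of coding promoter regions and 21.8% of the 33693 regions over 2 kb from coding starts. A peak was present at 80.0% ± 5.43 (SD, n = 5) of them in Young Sham, 80.9% ± 3.5 (n = 4) in Young Bleo, 70.8% ± 6.2 (n = 4) in Aged Sham and 72.5% ± 11.8 (n = 5) in Aged Bleo, where Aged Bleo 4 was lowest at 56.9%. The shares of all regions fell in the same order of groups, at 71.9% ± 6.65, 75.1% ± 5.86, 59.2% ± 7.08 and 63.0% ± 15.5. When each list was reduced to its 21050 most significant peaks, which left 362 noncoding promoter regions, the means were 82.4%, 82.1%, 82.0% and 80.0%. Equal list lengths by themselves bring such shares together, and the part of list length in the lower Aged share was not tested. In bulk samples, fewer cells with an open region and less opening per cell cannot be told apart.

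**Figure D2:**
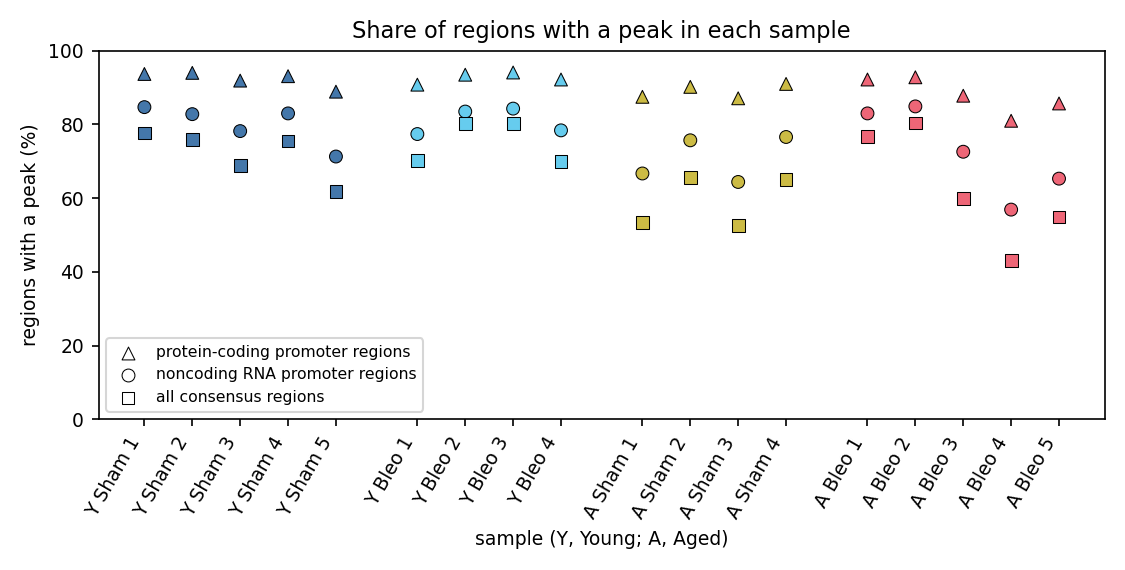
Share of regions with a peak (percent) in each of the 18 samples, for noncoding RNA promoter regions (circles), protein-coding promoter regions (triangles) and all consensus regions (squares). The noncoding RNA promoter regions lie between the other two sets in every sample, and Aged Bleo 4 is lowest at 56.9%.

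Among the peaks with the highest fold enrichment were small nucleolar RNA hosts. Ranked by mean percentile of fold enrichment within each list, among the regions called in all samples, the first was Gm36183 (chr13:48227672-48228233, 33.2 kb from the coding start of Id4), with a fold enrichment over local background of 27.6 to 39.0 across samples. It was followed by Vaultrc5, a vault RNA gene (25.3 to 31.3), Snhg15 (24.4 to 32.8) and Dancr (24.6 to 32.1), which both host small nucleolar RNAs, and Gm26611 (24.4 to 32.7). These 5 were chosen by their fold enrichment, so their rank is a description.

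Presence was compared by Fisher's exact test (two-sided) on each of the 47338 regions, a region being called at an unadjusted p of at most 0.05. Against Young Sham, peaks at noncoding promoter regions were called less often in Aged Sham at 24 regions (4.6%, where 4.9% of all regions were called) and more often at 4 (0.766%, background 0.264%). In Young Bleo, 9 were lower (1.72%, background 1.96%) and 11 higher (2.11%, background 3.98%). In Aged Bleo, 13 were lower (2.49%, background 3.01%) and 1 higher (0.192%, background 0.201%). Over all samples, 15 were lower in Aged than in Young (2.87%, background 4.87%) and 2 higher (0.383%, background 0.127%), and 5 were lower in Bleo than in Sham (0.958%, background 1.23%) and 8 higher (1.53%, background 2.17%). A region called in all 18 samples cannot differ in presence, and such regions were 51.0% of the noncoding promoter regions and 36.8% of all. Of the 256 noncoding promoter regions called in fewer samples, and of the 29906 such regions in all, 9.38% and 7.76% were lower in Aged Sham, 3.52% and 3.1% in Young Bleo, 5.08% and 4.76% in Aged Bleo, 5.86% and 7.7% with age, and 1.95% and 1.95% in Bleo. In the higher direction these shares were 1.56% and 0.418%, 4.3% and 6.3%, 0.391% and 0.318%, 0.781% and 0.201%, and 3.12% and 3.43% in the same order. The shares are descriptions with no test, and those of the higher direction in Aged Sham, in Aged Bleo and with age rest on 4, 1 and 2 noncoding promoter regions. No region of either kind had a Benjamini-Hochberg adjusted p of at most 0.05 (smallest over the noncoding promoter regions, by Fisher's exact test, 0.786, 0.535, 1, 0.229 and 0.927 in the same order). With lists of equal length, 5 of 362 noncoding promoter regions were lower in Aged Sham (1.38%, against 1.55% of all regions under that setting) and 4 in Aged Bleo (1.1%, against 1.95%). Leaving out any 1 sample took the 24 lower in Aged Sham to 4 to 12 (0.766% to 2.3%, against 1.09% to 2.11% of all regions) and the 11 higher in Young Bleo to 1 to 7 (0.192% to 1.34%, against 1.09% to 2.34%). Without Aged Bleo 4, 14 were lower (2.68%, against 3.12% of all regions) and 4 higher (0.766%, against 0.968%) in Aged Bleo than in Young Sham.

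The promoter region of Mir99ahg (chr16:77329116-77329725, in an exon, with its midpoint 92 bp inside the transcript) had a peak in every Young Sham mouse and in no Aged mouse. Mir99ahg is known as the host of the miR-99a, let-7c and miR-125b-2 cluster. In RefSeq the transcript ends before these hairpins, which start 270 kb (Mir99a and Mirlet7c-1) and 317 kb (Mir125b-2) downstream. The peak summits held 20, 27, 21, 13 and 13 fragments in Young Sham 1 to 5 and 19 in Young Bleo 4, and there was no peak in the other 12 samples. Aged Sham differed from Young Sham by Fisher's exact test (p = 0.00794, 0 of 4 against 5 of 5, the smallest p this design allows), as did Aged Bleo (p = 0.00794) and Young Bleo (p = 0.0476). The Young Bleo call is lost without 1 Young Sham sample, or without 1 Young Bleo sample that lacked the peak. The 6 samples with the peak were exactly those of lane 8. It was 1 of 11 regions with that pattern among all 47338, and it dropped out when lists were cut to equal length.

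In all, 32 noncoding promoter regions had peaks in Young samples alone, 6 of them in at least 5 samples. The matching counts over all regions and for Aged samples alone are not given here. Both Aged groups also had a lower mean share of all regions with a peak than both Young groups. The count therefore cannot be read as particular to noncoding promoter regions. Among the 32, Gm12830, Gm11827 and Mir3086 had peaks in 7 or 8 samples. At Gm12830 (chr4:114821559-114822078) the summits held 12, 21, 18, 18 and 11 fragments in Young Sham, 11, 10 and 14 in Young Bleo 1, 2 and 4, and there was no peak in the 9 Aged samples (exact p = 0.000411 over all samples). At Gm11827 (chr4:11123518-11123954, 32.7 kb from Trp53inp1, a p53 target) the Young Sham summits held 19, 23, 14, 18 and 17 fragments and Young Bleo 1 and 3 held 12 and 11. These are low counts in all samples with a peak. No Aged sample had a peak at Gm11827 (Fisher's exact p = 0.00226 for age over all samples). The groups by age do overlap, as Young Bleo 3 had no peak at Gm12830 and Young Bleo 2 and 4 had none at Gm11827. Mir3086, in an intron of a coding gene, had 14, 13 and 10 fragments in Young Sham 2, 4 and 5 and 13, 12, 17 and 14 in Young Bleo, and none in Aged (exact p = 0.00226). None of these 3 was among the regions of the equal-length lists, so their presence could not be compared there.

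Trp53cor1 (lincRNA-p21, a p53-induced lncRNA next to the cell cycle inhibitor Cdkn1a) had the opposite pattern. Its region at chr17:29078922-29079230, whose midpoint lies 50 bp inside the transcript and 11.9 kb from the start of Cdkn1a, had no peak in Young Sham. Summits of 12, 18 and 14 fragments were called in Aged Sham 1, 3 and 4, of 11, 30 and 18 in Aged Bleo 1 to 3, and of 15 in Young Bleo 2. Peaks were thus present in 6 of 9 Aged and 1 of 9 Young samples (Fisher's exact p = 0.0498; Aged Sham against Young Sham p = 0.0476), and leaving out 1 sample took the latter to at most 0.143. A second Trp53cor1 region farther into the transcript (chr17:29078144-29078488) had peaks of 13 and 16 fragments in Young Sham 2 and 4 only. With lists of equal length neither comparison of Trp53cor1 passed the threshold.

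A630089N07Rik and Gm11714 were also called more often in Aged Sham than in Young Sham. A630089N07Rik (chr16:98081864-98082742) held 38, 15, 27 and 28 fragments in Aged Sham, 16, 23, 21 and 19 in Aged Bleo 1, 2, 3 and 5, and 29, 32 and 17 in Young Sham 2, Young Bleo 1 and Young Bleo 4 (exact p = 0.0498 for age over all samples). Gm11714, in an intron of Pitpnc1 (chr11:107427994-107428429), held 15, 26, 19 and 20 fragments in Aged Sham, 18, 36, 30 and 16 in Young Bleo, 36 and 50 in Aged Bleo 1 and 2, and 13 in Young Sham 4. Both the Aged Sham and the Young Bleo difference of Gm11714 had an exact p of 0.0476, as did the Aged Sham difference of A630089N07Rik, and each rose to at most 0.143 without 1 sample.

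After bleomycin, the region called in every Young Bleo mouse and in no Young Sham mouse was LOC105245613 (chr13:101540397-101540905), an intergenic lncRNA start 152 kb from Pik3r1, which encodes a regulatory subunit of phosphoinositide 3-kinase. Its summits held 46, 29, 40 and 17 fragments in Young Bleo, 53, 72, 15 and 9 in Aged Bleo 1, 2, 3 and 5, and 10 and 21 in Aged Sham 2 and 4. Young Bleo 4, in the same lane as Young Sham, also had the peak. Fisher's exact p was 0.00794 for Young Bleo and 0.0476 for Aged Bleo, each against Young Sham, and 0.0152 for Bleo against Sham, and the first and last of these kept their side of the threshold with lists of equal length. Gm30957 (chr2:8947054-8947464) had 24, 31, 36 and 18 fragments in Young Bleo, 20, 17 and 13 in Aged Bleo 1 to 3, 16 in Young Sham 4, and no peak in Aged Sham (exact p = 0.0152).

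Other regions had no peak in any Young Bleo mouse while all Young Sham mice had one. Gm29688 (chr8:126979287-126979762) held 8, 19, 20, 29 and 14 fragments in Young Sham and 14, 23 and 13 in Aged Sham 1, 2 and 4, and had no peak in the 9 Bleo samples (exact p = 0.000411). Mir6380 held 22, 19, 14, 19 and 13 fragments in Young Sham, 12, 20, 19 and 14 in Aged Sham, and 13 and 10 in Aged Bleo 3 and 5 (exact p = 0.00226). These Sham values overlap those of the few Bleo samples with a peak. 4930431P22Rik held 18, 20, 26, 19 and 16 fragments in Young Sham, 18, 13 and 20 in Aged Sham 1 to 3, and 10 in Aged Bleo 2 (exact p = 0.00337). With lists of equal length none of these 3 passed the threshold. 4930488L21Rik (chr8:93813377-93813666) was called in the 5 Young Sham samples alone, with 47, 60, 45, 49 and 49 fragments, but over a high local background of 14.2 to 18.3 expected fragments, which made its fold enrichment 2.75 to 3.29.

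**Figure D3:**
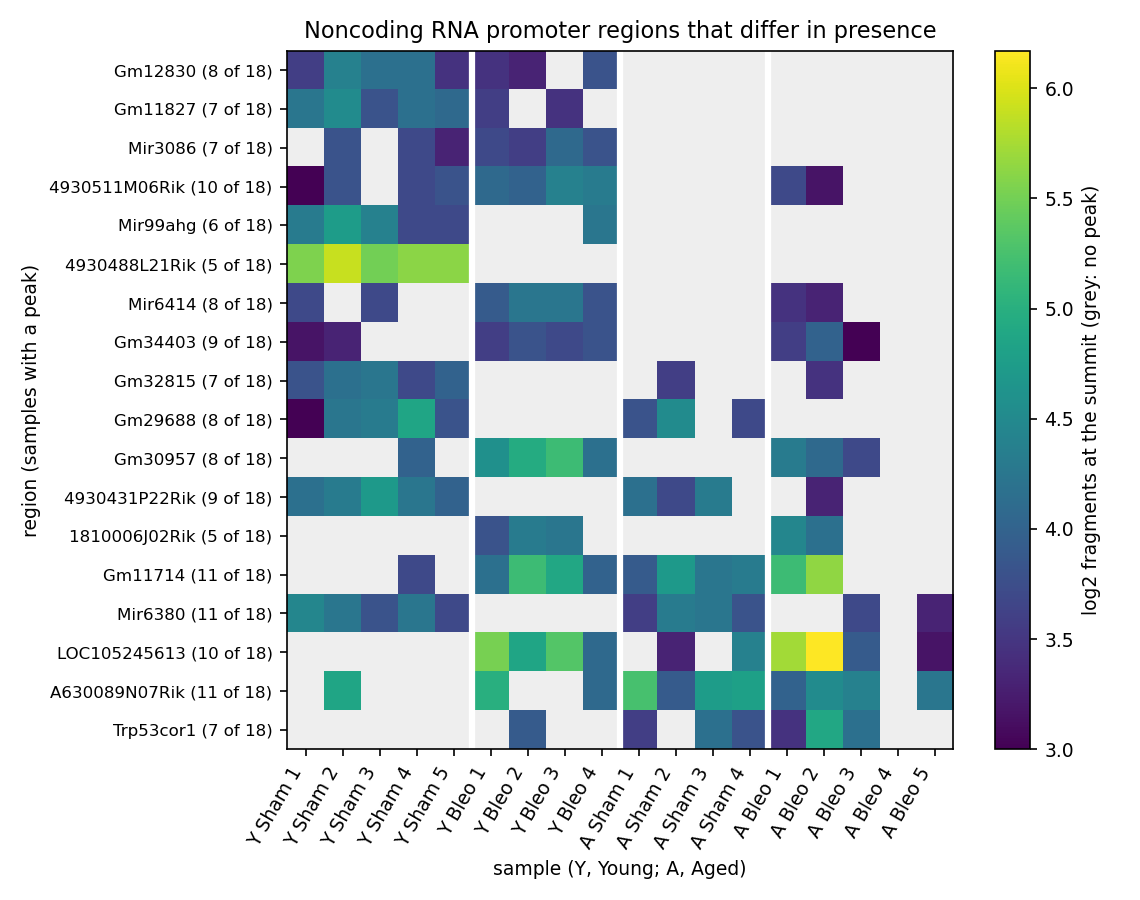
Log2 of the fragments at the peak summit in each sample (colour, grey where no peak was called) for 18 noncoding RNA promoter regions that differed in presence. The first 5 rows, from Gm12830 to Mir99ahg, have no peak in Aged Sham, and LOC105245613 has none in Young Sham.

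The 47 regions called in a comparison of presence had a median of 13 to 61 summit fragments over the samples with a peak (median of these 16), and those called in all samples 18 to 608 (median 70.5). The height of the 266 noncoding promoter regions called in all samples was compared as well. Height here is the number of fragments at the peak summit, solved from the deposited fold enrichment and p-value. It was scaled between samples by the median ratio over the 17432 regions called in all samples. This scaling centres every sample on those regions, so the comparison of heights cannot show a fall or rise shared by most of them. limma, with Benjamini-Hochberg adjustment over those 17432 regions and an adjusted p of at most 0.05, called 13 noncoding promoter regions lower (4.89%, background 3.91%) and 14 higher (5.26%, background 5.19%) in Aged Sham than in Young Sham. In Young Bleo, 22 were lower (8.27%, background 8.15%) and 33 higher (12.4%, background 9.24%). In Aged Bleo, 51 were lower (19.2%, background 15.7%) and 41 higher (15.4%, background 16.6%). Over all samples, 21 were lower (7.89%, background 5.23%) and 18 higher (6.77%, background 7.19%) in Aged than in Young, and 49 were lower (18.4%, background 17%) and 49 higher (18.4%, background 16.8%) in Bleo than in Sham. The difference between the bleomycin effects in Aged and Young mice passed limma's test at 0 of the 266 (at an unadjusted p of at most 0.05, 18 had a negative and 16 a positive difference, 6.77% and 6.02%, where all regions gave 7.56% and 6.69%, and 0.115% of all passed with adjustment). When lane was a term in the fit, which then rests on Young Bleo 4 and Aged Sham 4, calls remained at 0 noncoding promoter regions in the first 4 comparisons and at 2 for Bleo over Sham, Mir6236 and B330016D10Rik. Of all 17432 regions, lane as a term left 0 to 8 called in each comparison and direction except 44 higher in Bleo (0.252%, against 0.752% of the noncoding promoter regions).

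The noncoding promoter region with the smallest p for age was that of C430049B03Rik (chrX:53056834-53057575), the lncRNA in which the hairpins of miR-322, miR-503 and miR-351 lie 2.84 to 3.84 kb from the start. miR-322 and miR-503 are known for restraining the cell cycle and for roles in endothelial growth. Scaled summit fragments were 114, 104, 112, 106 and 108 in Young Sham, 89.8, 111, 103 and 93.3 in Young Bleo, 68.8, 44.3, 63.5 and 56.2 in Aged Sham, and 61.0, 59.1, 49.1, 69.7 and 54.7 in Aged Bleo. Every Aged sample was below every Young sample. Within lane 7, Aged Sham 1 to 3 (44.3 to 68.8) were below Young Bleo 1 to 3 (89.8 to 111). The log2 difference of Aged from Young was -0.84 ± 0.09 (SE, limma adjusted p = 8.47e-07), and that of Bleo from Sham -0.06 ± 0.09 (adjusted p = 0.646). With lane as a term the age difference for C430049B03Rik was -0.89 (adjusted p = 0.12).

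A330023F24Rik, which carries the hairpins of miR-29b-2 and miR-29c 19.6 and 20.1 kb from its start, had higher regions in Aged mice. The miR-29 family is known for repressing collagen and other extracellular matrix genes. At the region in its first kilobase (chr1:195017989-195018504) the scaled summits of A330023F24Rik were 55.6, 54.8, 41.4, 47.4 and 42.2 in Young Sham, 53.9, 31.8, 38.8 and 54.1 in Young Bleo, 115, 76.2, 101 and 96.2 in Aged Sham, and 54.2, 71.6, 87.1, 117 and 96.5 in Aged Bleo. The Aged samples were above the Young, except that Aged Bleo 1 overlapped them. The log2 difference of Aged from Young was 0.96 ± 0.13 (limma adjusted p = 5.55e-05), and in lane 7 Aged Sham 1 to 3 (76.2 to 115) were above Young Bleo 1 to 3 (31.8 to 53.9). A second A330023F24Rik region at chr1:195016792-195017402, just upstream, was also higher in Aged mice (0.75 ± 0.11, adjusted p = 6.78e-05), and 63.5% of its 200 bp window is masked as repeat against 6% of the first. With lane as a term the differences at A330023F24Rik were 1.22 (adjusted p = 0.15) and 0.70 (adjusted p = 0.308).

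Neat1, the scaffold of nuclear paraspeckles, had a higher summit in all 3 groups than in Young Sham. At the region across its start, scaled summits were 120, 133, 137, 117 and 139 in Young Sham, 194, 201, 169 and 210 in Young Bleo, 167, 165, 180 and 222 in Aged Sham, and 225, 231, 230, 196 and 232 in Aged Bleo. No sample of the other groups overlapped Young Sham, and Young Bleo 4, in the lane of Young Sham, was at 210. Against Young Sham the log2 difference at Neat1 was 0.50 ± 0.10 in Aged Sham (limma adjusted p = 0.00266), 0.58 ± 0.10 in Young Bleo (adjusted p = 0.000249) and 0.79 ± 0.09 in Aged Bleo (adjusted p = 4.2e-07). With lane as a term the Young Bleo difference of Neat1 was 0.70 (adjusted p = 0.0528). Malat1, the neighbouring nuclear lncRNA abundant in endothelial cells, rose to 268 ± 26.6 (SD, n = 5) in Aged Bleo from 181 ± 16.9 (n = 5) in Young Sham, a log2 difference of 0.57 ± 0.09 (adjusted p = 2.14e-05). Malat1 did not pass the test in Aged Sham (0.15 ± 0.09, adjusted p = 0.336) or Young Bleo (0.20 ± 0.09, adjusted p = 0.147), and the difference between the bleomycin effects in Aged and Young mice was 0.23 ± 0.13 (adjusted p = 0.441).

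Mir6236 had the largest rise after bleomycin among the named regions. Scaled summits at chr9:110281146-110281474 were 48.9, 38.5, 46.3, 41.0 and 53.1 in Young Sham, 127, 112, 94.7 and 90.7 in Young Bleo, 64.7, 77.3, 60.8 and 85.7 in Aged Sham, and 134, 139, 112, 119 and 130 in Aged Bleo. All Bleo samples were above all Sham samples, and 40% of the Mir6236 window is masked as repeat. The log2 difference of Bleo from Sham was 1.02 ± 0.09 (limma adjusted p = 1.19e-07), and 0.78 with lane as a term (adjusted p = 0.0392). B330016D10Rik (chr4:141545698-141547163, 7.83 kb from Spen) held 189, 189, 175, 168 and 210 in Young Sham, 246, 264, 268 and 205 in Young Bleo, 167, 189, 159 and 190 in Aged Sham, and 318, 366, 319, 307 and 324 in Aged Bleo. Only Young Bleo 4 was within the range of the Sham samples. Its log2 difference of Bleo from Sham was 0.64 ± 0.07 (adjusted p = 2.25e-07), and 0.46 with lane as a term (adjusted p = 0.0421). Gm9917, 2.05 kb from the start of the hyaluronidase gene Hyal2, rose both with bleomycin (0.49 ± 0.07, adjusted p = 5.61e-06) and with age (0.34 ± 0.07, adjusted p = 0.00139).

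Other regions fell. BB218582 (chr2:106650150-106650635) held 114, 97, 95.9, 106 and 110 in Young Sham, 66.2, 53.8, 63.4 and 56.7 in Young Bleo, 74.2, 52.5, 51.3 and 47.6 in Aged Sham, and 31.3, 42.4, 56.5, 39.5 and 53.3 in Aged Bleo. Young Sham was above every other sample, Young Bleo 4 of its own lane included. Gm42303, in an intron of Ptprd (chr4:76449532-76450906), held 64.7, 82.2, 79.4, 72.3 and 67.1 in Young Sham, 38.8, 29.4, 38 and 41.0 in Young Bleo, 66.1, 41.2, 59.4 and 42.9 in Aged Sham, and 27.9, 20, 20.9, 28.2 and 20.2 in Aged Bleo. Every Bleo sample of Gm42303 was below every Sham sample (log2 difference -1.07 ± 0.12, limma adjusted p = 9.04e-07, and -0.86 with adjusted p = 0.0642 with lane as a term). For BB218582 the log2 difference was -0.68 ± 0.11 with age (adjusted p = 0.000354) and -0.58 ± 0.11 with bleomycin (adjusted p = 0.000345). A230028O05Rik (-0.60 ± 0.10, adjusted p = 9.55e-05) and Mir713 (-0.63 ± 0.12, adjusted p = 0.000209) were also lower in Bleo than in Sham. Gm13522 (-0.41 ± 0.09, adjusted p = 0.00118) and Lincred1 (-0.45 ± 0.12, adjusted p = 0.00635) were too over all samples, but their means fell in Young mice and changed little in Aged mice. Mean scaled fragments of Gm13522 were 112 in Young Sham, 66.5 in Young Bleo, 86.6 in Aged Sham and 83.1 in Aged Bleo. Those of Lincred1 were 119, 64.3, 77.2 and 77.6 in the same order. Neither Gm13522 nor Lincred1 passed limma's test for a difference between the bleomycin effects in Aged and Young mice. Gm53063 was lower with age (-0.46 ± 0.13, adjusted p = 0.0159).

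Called regions changed by a range of sizes in both directions. Among the 266 regions, the log2 differences of those called with age ran from -0.84 to -0.27 in the lower direction (median -0.40) and from 0.23 to 0.96 in the higher (median 0.34), and with bleomycin from -1.07 to -0.20 (median -0.39) and from 0.17 to 1.02 (median 0.35). Of the 24 microRNA starts among them, 2 were called with age and 6 with bleomycin in either direction, where 12.4% and 33.8% of all 17432 regions were called. Further lncRNA regions are given here that were chosen after their values were seen, for the coding gene that lies nearest. Gm16174 (chr7:19816108-19816780, 6.31 kb from Bcl3, a regulator of NF-kB) held 58.1, 60.7, 61.2, 63.5 and 73.6 scaled fragments in Young Sham, 139, 131, 115 and 93.3 in Young Bleo, 79.6, 87.6, 82.4 and 94.3 in Aged Sham, and 151, 181, 88.4, 88.5 and 114 in Aged Bleo. Young Sham was below all other samples, while Aged Sham overlapped both Bleo groups. The log2 difference of Gm16174 was 0.69 ± 0.12 for Bleo from Sham (limma adjusted p = 7.76e-05) and 0.23 ± 0.12 for age (adjusted p = 0.196). Chaserr, which lies 16.9 kb from Chd2 and is known to restrain its expression, was higher in Bleo by 0.27 ± 0.06 (adjusted p = 0.000607), and Lockd, 8.2 kb from the cell cycle inhibitor Cdkn1b, by 0.31 ± 0.12 (adjusted p = 0.0496, at most 0.124 when 1 sample was left out). The mean of Lockd rose in Young mice, from 39.5 in Young Sham to 60.9 in Young Bleo, and was 42.3 in Aged Sham and 43.0 in Aged Bleo. Lockd did not pass limma's test for a difference between the bleomycin effects in Aged and Young mice. Gm13387, 35.2 kb from the Notch pathway gene Nrarp, was lower in Bleo by 0.36 (-0.36 ± 0.10, adjusted p = 0.00808), and Gm15222, 3.19 kb from the growth factor gene Bmp4, by 0.31 (-0.31 ± 0.09, adjusted p = 0.0104). A330074K22Rik (51 kb from the nearest coding start) held 14.8 to 22.7 in Young Sham, 24.6 to 28.4 in Young Bleo, 22.9 to 37.8 in Aged Sham and 30.5 to 49.1 in Aged Bleo, and was higher both with age (0.65 ± 0.13, adjusted p = 0.00236) and with bleomycin (0.41 ± 0.13, adjusted p = 0.0193, at most 0.0506 when 1 sample was left out). Both regions of D630041G03Rik, on either side of its start, were lower with age (-0.52 ± 0.13, adjusted p = 0.00923, and -0.42 ± 0.11, adjusted p = 0.0117). With lane as a term, Gm16174 and the other regions of these sentences did not pass limma's test for age or bleomycin, with the log2 difference of Bleo from Sham at 0.45 for Gm16174 and that of Aged from Young at 1.02 for A330074K22Rik.

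**Figure D4:**
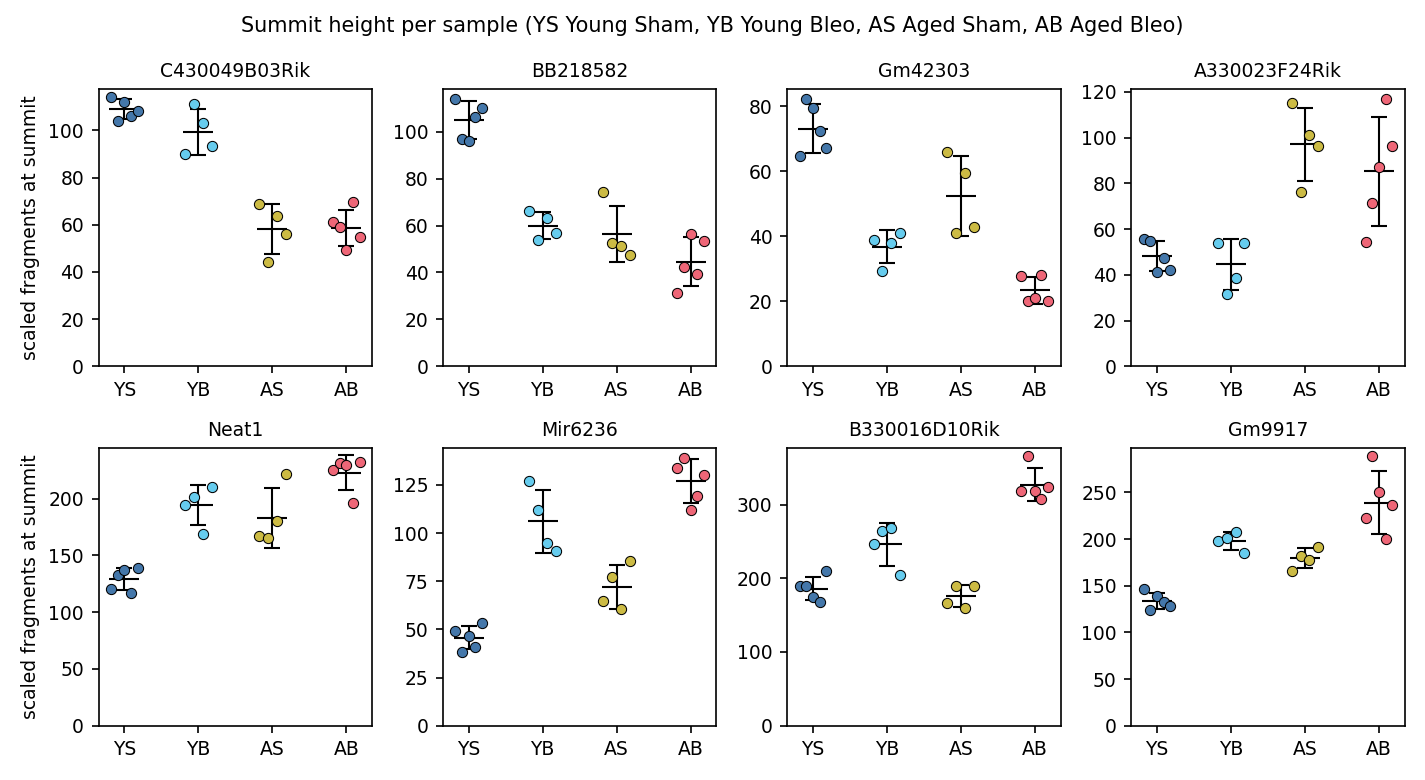
Scaled fragments at the peak summit of 8 noncoding RNA promoter regions (A330023F24Rik: the region in its intron), 1 point per mouse, with the group mean and SD as bars. For C430049B03Rik all Aged points lie below all Young points, and for Mir6236 all Bleo points lie above all Sham points.

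**Figure D5:**
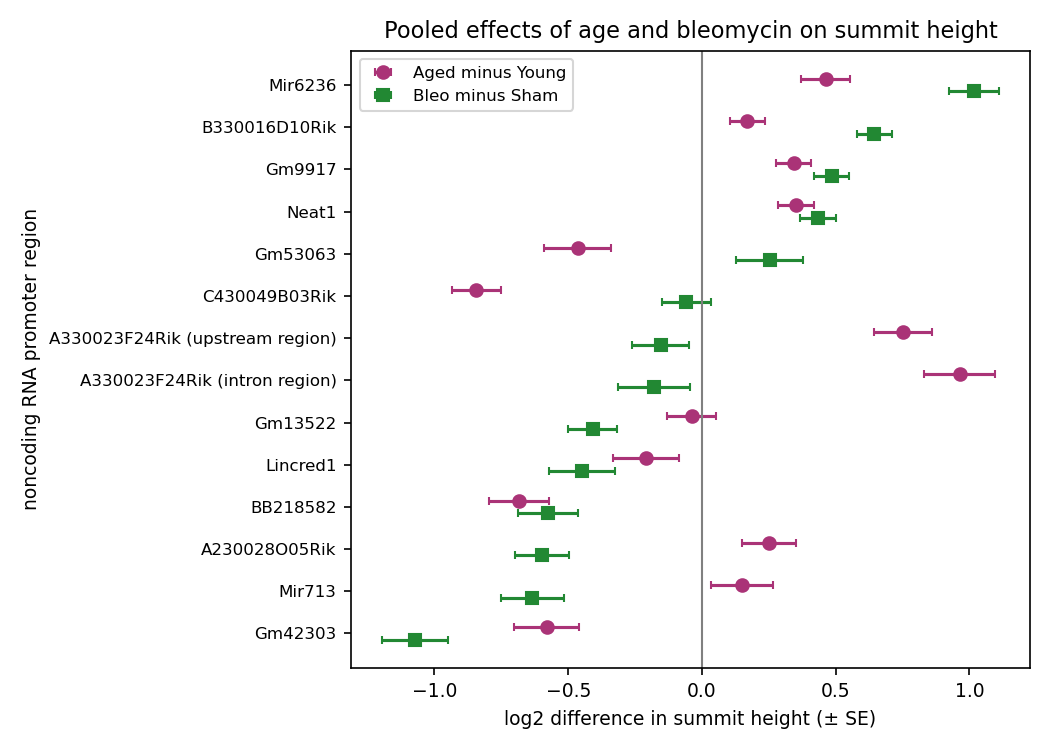
Log2 difference in summit height (± SE, limma) of Aged from Young (circles) and of Bleo from Sham (squares) over all 18 samples, for 14 named noncoding RNA promoter regions. C430049B03Rik lies at -0.84 for age and -0.06 for bleomycin, and Mir6236 at 1.02 for bleomycin.

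Known microRNAs and lncRNAs were read from lists of familiar members, chosen with earlier results known, and few hairpins had a region at their start. In this and the following lists, a symbol without a region can still have an open start. Regions 2 kb or less from a coding start were left out by the rule. Of 33 endothelial microRNA symbols only Mir210 and Mir23a had one, both in all samples. Mir210, known to be induced by hypoxia, held 112, 123, 109, 116 and 118 scaled fragments in Young Sham, 208, 206, 195 and 144 in Young Bleo, 127, 180, 131 and 178 in Aged Sham, and 253, 282, 155, 130 and 134 in Aged Bleo. The Young Sham samples were below all others, while Aged Sham and Aged Bleo overlapped. The log2 difference of Mir210 was 0.69 ± 0.18 in Young Bleo (limma adjusted p = 0.00845), 0.65 ± 0.17 in Aged Bleo (adjusted p = 0.00417) and 0.40 ± 0.18 in Aged Sham (adjusted p = 0.156). At Mir23a, the first hairpin of the miR-23a, miR-27a and miR-24-2 cluster, the difference of Bleo from Sham was 0.20 ± 0.12 (adjusted p = 0.202). Of 34 injury, ageing and fibrosis microRNAs, Mir212 had a region in all samples, Mir26a-1 in 14 and Mir30a in 10, and none was called in any comparison. Among 32 microRNAs of other cell types, the lymphocyte microRNA Mir150 had a region in 17 samples, and the smooth muscle microRNA Mir145a had a region in 16 samples and another in 4.

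Of 18 microRNA host symbols, 6 had 7 regions. Mir22hg, host of miR-22, rose from 251 ± 10.8 scaled fragments in Young Sham (SD, n = 5) to 319 ± 18.8 in Young Bleo (n = 4), 322 ± 51.7 in Aged Sham (n = 4) and 404 ± 38.1 in Aged Bleo (n = 5). Its log2 differences from Young Sham were 0.35 ± 0.09 (limma adjusted p = 0.0123), 0.34 ± 0.09 (adjusted p = 0.0226) and 0.68 ± 0.09, and leaving out 1 sample took the first to an adjusted p of at most 0.058 and the second to 0.0881. Dleu2, host of miR-15a and miR-16-1, was higher in Bleo by 0.24 ± 0.08 (adjusted p = 0.018). Mir100hg was called in all samples with 10 to 37 unscaled fragments and passed no test, Dnm3os, host of miR-199a-2 and miR-214, had a peak in 10 samples, and Mirc35hg in 2.

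The hosts of small nucleolar RNAs, which guide chemical modification of ribosomal RNA, formed another list. Of 20 symbols, 13 had a region, 12 of them in all samples, and 7 had none under the rule used here. The median log2 difference over those 12, from Young Sham, was 0.01 for Aged Sham, -0.06 for Young Bleo and 0.15 for Aged Bleo. Over all 17432 regions it was 0.00, 0.00 and -0.02, which the scaling over these same regions sets, so these are not a measured background. Snhg6 was lower in Bleo by 0.34 (-0.34 ± 0.08, limma adjusted p = 0.00315), Snhg5 higher by 0.25 ± 0.06 (adjusted p = 0.00346), and Epb41l4aos higher with age by 0.41 ± 0.09 (adjusted p = 0.00497). Of 14 imprinting and X inactivation symbols, 4 had a region, each in all samples, and 3 were lower in Bleo than in Sham, where 17% of all regions were. They were Kcnq1ot1 (-0.34 ± 0.09, adjusted p = 0.00509) and Airn (-0.42 ± 0.15, adjusted p = 0.0267), which silence imprinted neighbours, and Jpx (-0.33 ± 0.12, adjusted p = 0.0351), an activator of Xist. Leaving out 1 sample took Airn to an adjusted p of at most 0.0753 and Jpx to 0.083, and Peg13 was at 0.22 ± 0.11 (adjusted p = 0.128).

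Of 30 symbols of abundant or well-studied lncRNAs, 10 had 12 regions. Firre, an X-linked lncRNA of nuclear organisation, held 128, 108, 103, 106 and 115 scaled fragments in Young Sham, 72.8, 73.4, 80.6 and 83.7 in Young Bleo, 107, 88.6, 130 and 97.1 in Aged Sham, and 76.2, 73.2, 72.4, 105 and 70.6 in Aged Bleo. Young Bleo was below all Sham samples, and Aged Bleo 4 overlapped them. The log2 difference of Firre was -0.47 ± 0.09 for Bleo from Sham (limma adjusted p = 0.000264) and -0.04 ± 0.09 for Aged from Young (adjusted p = 0.818). Norad was called in all samples, Pvt1 (52.7 kb from Myc) and Bvht in 16 each, Hoxd3os1 in 17 and Lncpint in 5. Of these, Pvt1, Bvht, Hoxd3os1 and Lncpint were not called in a comparison of presence. The height of Norad, at 14.1 to 22.9 scaled fragments, passed no test (Bleo from Sham -0.03 ± 0.13, limma adjusted p = 0.898, and Aged from Young 0.13 ± 0.13, adjusted p = 0.55).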

How the data were processed

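Peak lists deposited by the authors were used, 1 for each of 18 mice. Per the methods, reads were mapped to mm10 with BWA, duplicates were removed and MACS2 called the peaks of every list separately (FDR 1%). The deposited columns hold a score, a fold enrichment (ratio) at the summit, −log10 p and −log10 q. The authors' other column, the summit offset, was not used for tests. The lists carry no read counts, so the authors' count-based comparison was not repeated. The 19 mitochondrial peaks were left out. The members, gene lists and the height measure were chosen with earlier results of these data known. Whole summit fragments were solved from fold enrichment and −log10 p (within 0.02 of a whole number for at least 99.986% of the peaks of each list), which assumes MACS2's Poisson model. Starts came from RefSeq on GRCm38.p6 (45756 transcripts), the build of mm10. Presence was tested by Fisher's exact test (scipy 1.17.1) and height by limma 3.58.1 in R 4.3.3 on log2 values with 4 group means. Both were run on simulated data. For presence, the changed regions were given a peak in every Young Sham and in no Aged Sham sample, a pattern the test always calls. That run therefore cannot show how smaller differences are found, and the outcome for height is not given here. Named regions were the 3 with the smallest p in each direction of each comparison, the 5 highest and the listed genes. Regions present in every sample of a group and in none of another were also named, and not all of these are described here. The sequence of 1 further window is not reported here. Regions set beside these in the text were chosen after their values were seen. Alternatives were stricter peaks, equal peak numbers, other region rules, other scaling, lane, replicate number and leaving out each sample.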

Additional observations from a re-analysis of the deposited data

Results flagged for a closer look

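In 68 groups of 4 or 5 samples, the highest or lowest sample was tested for standing apart from the others (Dixon's test). The groups were of the named heights and of the shares of noncoding promoter, lncRNA and microRNA regions called. Chance alone flags about 1 group in 20, and 2 were flagged, each of them a height. At Mir713, Young Bleo 4 had 54.1 scaled summit fragments, above the other Young Bleo samples at 38.8, 40.0 and 41.0. It is the Young Bleo sample in the lane of Young Sham, where Mir713 held 57.0 to 77.1. At Neat1, Aged Bleo 4 had 196 scaled summit fragments (196.0), below the other Aged Bleo samples at 225 to 232. It is also the sample with the fewest peaks, and the part of that in the value was not tested.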

How the results depend on the processing

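The height measure and its alternatives, lane included, were chosen after seeing the data. Of the 30 named height differences, all kept their direction and call under cyclic loess scaling, background subtraction and the replicate block, and 28 lost the call with lane as a term. With that term all 30 kept their direction, 8 grew and 22 shrank (log2 difference 0.387 to 1.41 times that without it, median 0.827), and the SE was 1.46 to 2.85 times as large (median 2.07). None of these 30 height differences reversed, but some mean shares and presence counts changed order, as given below. With lane as a term the counts of called heights were 0 in every comparison and direction but Bleo over Sham, where 2 were higher. For presence, peaks with −log10 q of at least 5 left 0 higher in Aged Bleo (against 0.189% of all regions) and 1 higher with age (0.198%, against 0.119% of all regions). Equal peak numbers left 5 lower in Aged Sham, 6 higher in Young Bleo, 4 lower and 4 higher in Aged Bleo, 6 lower with age and 4 higher in Bleo, and of these the 6 in Young Bleo were 1.66% (3.68% of all regions), the 4 higher in Aged Bleo 1.1% (1.1%), those with age 1.66% (1.02%) and those in Bleo 1.1% (2.05%). It gave a mean share of 82% in Aged Sham. Requiring at least 3 lists gave a Young Bleo share of 85.5%. Requiring peaks to cover at least 50% of a region gave 28 lower in Aged Bleo, 38 lower and 1 higher with age and 11 lower in Bleo (5.36%, 7.28% and 2.11% lower, against 5.8%, 8.29% and 1.82% of all regions, and 0.192% higher with age, against 0.12%). The mean shares were then 76.4% in Young Bleo, 63.1% in Aged Sham and 59.5% in Aged Bleo. A 500 bp window left 3 lower in Bleo (0.775%, against 1.23%), and including all noncoding transcripts gave 4 higher with age (0.646%, against 0.127%). limma on within-list percentiles, at an adjusted p of at most 0.05, gave 14 lower and 1 higher in Aged Sham, 7 higher in Young Bleo, 34 lower and 5 higher in Aged Bleo, 34 lower and 0 higher with age and 10 lower in Bleo. As shares of the noncoding promoter regions, with those of all regions in parentheses, these were 2.68% (2.62%) and 0.192% (0.0803%), 1.34% (1.63%), 6.51% (5.51%) and 0.958% (0.465%), 6.51% (7.06%) and 0% (0.142%), and 1.92% (1.46%). The cause of these shifts was not tested.

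Leaving out each sample in turn gave, for presence, 4 to 12 lower and 0 to 1 higher in Aged Sham, 5 to 8 lower and 1 to 7 higher in Young Bleo, 14 to 24 lower and 1 to 4 higher in Aged Bleo, 15 to 28 lower and 2 to 3 higher with age, and 5 to 10 lower and 8 to 15 higher in Bleo. For height it gave 8 to 20 lower and 9 to 18 higher in Aged Sham, 14 to 28 and 16 to 36 in Young Bleo, 37 to 54 and 34 to 51 in Aged Bleo, 12 to 24 and 14 to 20 with age, and 41 to 53 and 38 to 54 in Bleo. As shares over all regions these fits called, for presence, 1.09% to 2.11% lower and 0.0422% to 0.108% higher in Aged Sham, 0.499% to 1.04% and 1.09% to 2.34% in Young Bleo, 3.12% to 5.63% and 0.222% to 0.968% in Aged Bleo, 5.06% to 8.07% and 0.135% to 0.232% with age, and 1.34% to 2.19% and 2.24% to 4.75% in Bleo. For the noncoding promoter regions they were 0.766% to 2.3% and 0% to 0.192%, 0.958% to 1.53% and 0.192% to 1.34%, 2.68% to 4.6% and 0.192% to 0.766%, 2.87% to 5.36% and 0.383% to 0.575%, and 0.958% to 1.92% and 1.53% to 2.87%. For height all regions gave 1.78% to 4.74% and 2.89% to 6.45%, 4.3% to 9.78% and 5.09% to 10.6%, 12.7% to 17.7% and 14.2% to 18.3%, 3.28% to 5.99% and 5.15% to 7.93%, and 13.9% to 19% and 14.2% to 19.2%. The noncoding promoter regions gave 3.01% to 7.52% and 3.38% to 6.77%, 5.26% to 10.5% and 6.02% to 13.5%, 13.9% to 20.3% and 12.8% to 19.2%, 4.51% to 9.02% and 5.26% to 7.52%, and 15.4% to 19.9% and 14.3% to 20.3%. With 4 against 5 samples, leaving out any 1 of them moved most presence counts by over 1.5 times. In the other comparisons of presence these were Young Sham 5 (24 lower) and Aged Bleo 1 (21) and 2 (20) for Aged Bleo lower, and Young Sham 2 (2), Aged Bleo 4 (4) and 5 (3) for higher. With age they were Young Sham 5 (25), Young Bleo 1 (27) and Aged Bleo 1 (26), 2 (28) and 3 (23) for lower. In Bleo they were Young Bleo 4 (10) and Aged Sham 1 to 4 (8, 9, 9 and 8) for lower, and Aged Bleo 3 (13), 4 (15) and 5 (14) for higher. For height they were Young Sham 1 (8) and 2 (8) and Aged Bleo 4 (20) for Aged Sham lower, Aged Sham 1 (9) for higher, Young Bleo 2 (14) for Young Bleo lower, Young Bleo 1 (17), 2 (16) and 3 (21) for higher, and Young Bleo 3 (12) for lower with age.

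Samples with the same replicate number did not deviate together (correlations of -0.196 to 0.174), so the numbers were not taken as pairs. With the replicate block (exact McNemar test, 8 pairs) 5 were lower and 0 higher with age, and 3 lower and 1 higher in Bleo, where 610, 17, 148 and 243 of all 47338 regions were called. In the comparisons of a single group with Young Sham the smallest p with such pairs was 0.125, 0.125 and 0.0625, so no call could be made. For height the block gave 15 lower and 14 higher in Aged Sham, 26 and 30 in Young Bleo, 54 and 44 in Aged Bleo, 25 and 21 with age, and 48 and 51 in Bleo. The shares over all regions were 3.73% and 5.36%, 7.96% and 9.4%, 16.7% and 17.3%, 5.79% and 8.03%, and 18% and 17.7%, against 5.64% and 5.26%, 9.77% and 11.3%, 20.3% and 16.5%, 9.4% and 7.89%, and 18% and 19.2% of the noncoding promoter regions.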
